A study of Mus musculus with 6 samples.

Results

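The eukaryotic initiation factors are the proteins that bring the ribosome to the start codon of an mRNA. They were taken here as the genes of the deposited table whose symbol begins with Eif, without the eIF2 gamma genes of the sex chromosomes (Eif2s3x and Eif2s3y), the kinases of eIF2alpha (Eif2ak1 to Eif2ak4) and Eif4ebp1. The rule itself uses symbols and no measured value, but it was set with earlier results of these data known. It was met by 66 of 22322 genes. Counts were present for 47 of them, and all 47 passed the filter on low counts and were tested. The other 19 had 0 counts in every library, namely Eif4e1b, Eif4a3l1, Eif4a3l2 and 16 copies of the Eif1ad family, which allows a level of up to 0.114 to 0.158 CPM (counts scaled to the size of the library), taken as 3 counts in a library and covering counting error only.

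RNA-Seq was performed on CD4+CD8+ double-positive (DP) thymocytes sorted from the thymus of untreated mice, to ask which transcripts differ when Paxbp1, a nuclear protein, is deleted in the T cell lineage. The control group held 3 libraries titled WT, and the cKO group held 3 libraries titled Lck-KO. The titles do not name the floxed allele. The paper describes its controls as Paxbp1fl/fl littermates, and its cKO mice as Paxbp1fl/fl mice that also carried the Lck-cre transgene. Both groups therefore carried the allele in which exon 8 of Paxbp1 is flanked by loxP sites, and the mice were on the C57BL/6 background, of mixed sexes and aged 4 to 7 weeks. Cre is driven by the Lck promoter, which is active in immature thymocytes, and the controls lacked the transgene, so that Cre itself and the deletion cannot be told apart. No source used here says whether the libraries of a group came from separate mice, so p-values measure the spread between these libraries.

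Libraries held 18963775 to 26252248 counts, and 1 count was worth 0.0381 to 0.0527 CPM. The count of the Paxbp1 gene was not lower in the libraries labelled cKO. It was 24.0 ± 14.0 CPM in control and 45.2 ± 5.64 CPM in cKO (mean ± S.D., n = 3 each). Control libraries 1 to 3 were at 40.1, 16.3 and 15.5 CPM, and the cKO libraries at 38.8, 47.1 and 49.6 CPM. Control library 1 thus lay within the cKO range. The paper reports by qPCR that cKO thymocytes lost Paxbp1 RNA before the DP stage. By western blot it reports efficient loss of the protein in DP cells. A count over the whole gene cannot show the loss of exon 8 alone, so it does not check the labels. The cause of this difference was not tested. The defining DP genes Cd4, Cd8a, Cd8b1, Rag1 and Rag2 were detected in all 6 libraries. The summed level of 8 DP markers ran from 7390 to 8880 CPM in control and from 5070 to 6160 CPM in cKO, and 4 of the 8 (Cd8b1, Rag1, Cd3e and Cd1d1) were lower at an adjusted p below 0.05 (edgeR). The summed level of 12 macrophage markers ran from 6.99 to 26.2 CPM in control and from 46.4 to 69.0 CPM in cKO, and 4 of the 9 tested (Adgre1, C1qb, C1qc and Cd68) were higher; Mertk had 0 counts throughout and Adgre1 had 0 in the controls. Both shifts ran along with genotype beside every result below, and their part in those results was not tested. In bulk RNA, fewer cells of a type and less RNA per cell cannot be told apart.

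Initiation starts with eIF2, which in its GTP-bound form carries the initiator tRNA to the small ribosomal subunit, and eIF2B reloads eIF2 with GTP. eIF1, eIF1A, eIF3 and eIF5 assemble with them on the small subunit and help it to find the start codon, while eIF4F (the cap-binding protein eIF4E, the scaffold eIF4G and the helicase eIF4A) recruits it to the capped end of the mRNA. Phosphorylation of eIF2alpha and the binding of eIF4E by 4E-BP proteins are the classical points at which cells restrain initiation, and both act on proteins, which these data do not measure.

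Promoter sequences are shown for both tested eIF2 genes, the only role group in which every tested member was called, and for Eif4e and Eif4g1, the cap-binding protein and its main scaffold, which held 2 copies of the E-box each. Eif5a2 was the other member with 2 copies in a window and is not shown. The sequences are from RefSeq on build GRCm38.p6 and run 5′ to 3′ on the strand of the gene, from 250 bases before the annotated start to 30 bases after it. Capitals mark the E-box CACGTG, the letters bound by Myc, USF and related factors.
Eif2s1, chr12:78861822-78862101, plus strand: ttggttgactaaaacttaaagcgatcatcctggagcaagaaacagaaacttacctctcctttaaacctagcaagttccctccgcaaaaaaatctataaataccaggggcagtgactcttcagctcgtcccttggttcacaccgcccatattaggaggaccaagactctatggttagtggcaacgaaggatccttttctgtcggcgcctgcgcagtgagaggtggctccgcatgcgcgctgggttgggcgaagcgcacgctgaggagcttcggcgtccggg
Eif2s2, chr2:154892877-154893156, minus strand: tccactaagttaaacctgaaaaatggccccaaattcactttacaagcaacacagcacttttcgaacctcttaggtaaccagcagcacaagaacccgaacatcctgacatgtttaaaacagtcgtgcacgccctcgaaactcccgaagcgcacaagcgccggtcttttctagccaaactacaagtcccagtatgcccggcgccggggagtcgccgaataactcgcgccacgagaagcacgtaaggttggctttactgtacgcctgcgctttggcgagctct
Eif4e, chr3:138527018-138527297, plus strand: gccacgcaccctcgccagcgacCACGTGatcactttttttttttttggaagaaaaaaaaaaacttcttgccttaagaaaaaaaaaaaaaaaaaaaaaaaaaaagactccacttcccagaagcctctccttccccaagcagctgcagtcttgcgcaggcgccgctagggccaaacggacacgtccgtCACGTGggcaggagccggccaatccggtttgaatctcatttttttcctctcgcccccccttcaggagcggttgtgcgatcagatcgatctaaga
Eif4g1, chr16:20672477-20672756, plus strand: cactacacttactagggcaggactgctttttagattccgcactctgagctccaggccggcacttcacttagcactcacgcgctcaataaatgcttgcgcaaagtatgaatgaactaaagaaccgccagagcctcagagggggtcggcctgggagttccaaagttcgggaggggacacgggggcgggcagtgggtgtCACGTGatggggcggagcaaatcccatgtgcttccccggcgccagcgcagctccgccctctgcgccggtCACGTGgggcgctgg
The window of Eif4e is that of the downstream of its annotated starts, and the upstream one held no E-box. The window of Eif4g1 also lies downstream of the start of the gene in the GENCODE annotation, chr16:20668313.

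Altogether 3 motifs were searched on both strands in windows of 300 bases, which reach 50 bases past the start. Windows were found for 37 of the 47 tested members (49 windows), and Eif1a and Eif4e3 were among those without one. The E-box was present in 12 of the 49 windows (24.5%), against 10.1% of the 11650 windows of all tested genes and 7.15% of all 32851 windows. It was found for 10 members, namely Eif1b, Eif3a, Eif3f, Eif3k, Eif4a1, Eif4e, Eif4g1, Eif4h, Eif5a and Eif5a2. In Eif4e it started at positions -228 and -64, and in Eif4g1 at -54 and 16, counted from the annotated start. The ETS motif CCGGAAGT was present in 9 windows (18.4%, against 8.56% for all tested genes) and the NRF1 motif (GCGCA followed by its reverse complement TGCGC) in 1 (2.04%, against 2.2%). The windows of Eif2s1, Eif2s2 and Eif3m, the called members with a window, held none of the 3 motifs. These shares are descriptions of letters, with no test, and windows of 1 gene can overlap.

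Across the 47 tested factors, 4 were higher and 1 was lower in cKO than in control DP thymocytes. Eif2s1, Eif2s2, Eif1a and Eif3m rose and Eif4e3 fell, at an adjusted p below 0.05 (edgeR, quasi-likelihood test, Benjamini-Hochberg adjustment over 11488 genes). These 5 make up 10.6% of the members, while 10.4% of all tested genes were called (4.47% higher and 5.89% lower), so that the share of members called was close to that of all genes. None of the 47 passed a log2 fold change of 1, which 2.76% of all genes did, and the member changes ran from -0.71 to 0.59. By DESeq2, 10 members were called higher and 2 lower, against 8.30% and 8.59% of all genes. No member was called without control library 2 or without cKO library 3, where 413 and 120 of all genes were called. Without control library 3, 3 of the 5 calls held (Eif2s1, Eif2s2 and Eif4e3), and 636 of all genes were called. Without control library 1 all 5 calls held and 12 members were called (25.5%), against 2030 of all genes (17.1%).

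Most of the small differences pointed upwards. The log2 fold change was above 0 for 34 of the 47 (72.3%) and below 0 for 13, against 49.8% above 0 among all genes tested, and its median was 0.16, against -0.0017 for all genes. The 3 control values and the 3 cKO values did not overlap for 25 members, 20 of them higher and 5 lower in cKO, while 33.0% of all genes did not overlap (15.7% higher and 17.3% lower). At an unadjusted p below 0.05, 15 members were higher and 4 lower, and 27.9% of all genes passed in either direction. The members are abundant transcripts whose median standard error was 0.12 on the log2 scale, against 0.19 for all tested genes. The shares without overlap and below the unadjusted p therefore set more precise genes beside less precise ones. The part of precision in these shares was not tested. Summed over all members, the level was 11080, 11330 and 12120 CPM in the controls and 12560, 12280 and 13130 CPM in the cKO libraries, 9.95% higher in cKO, without overlap.

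**Figure D1:**
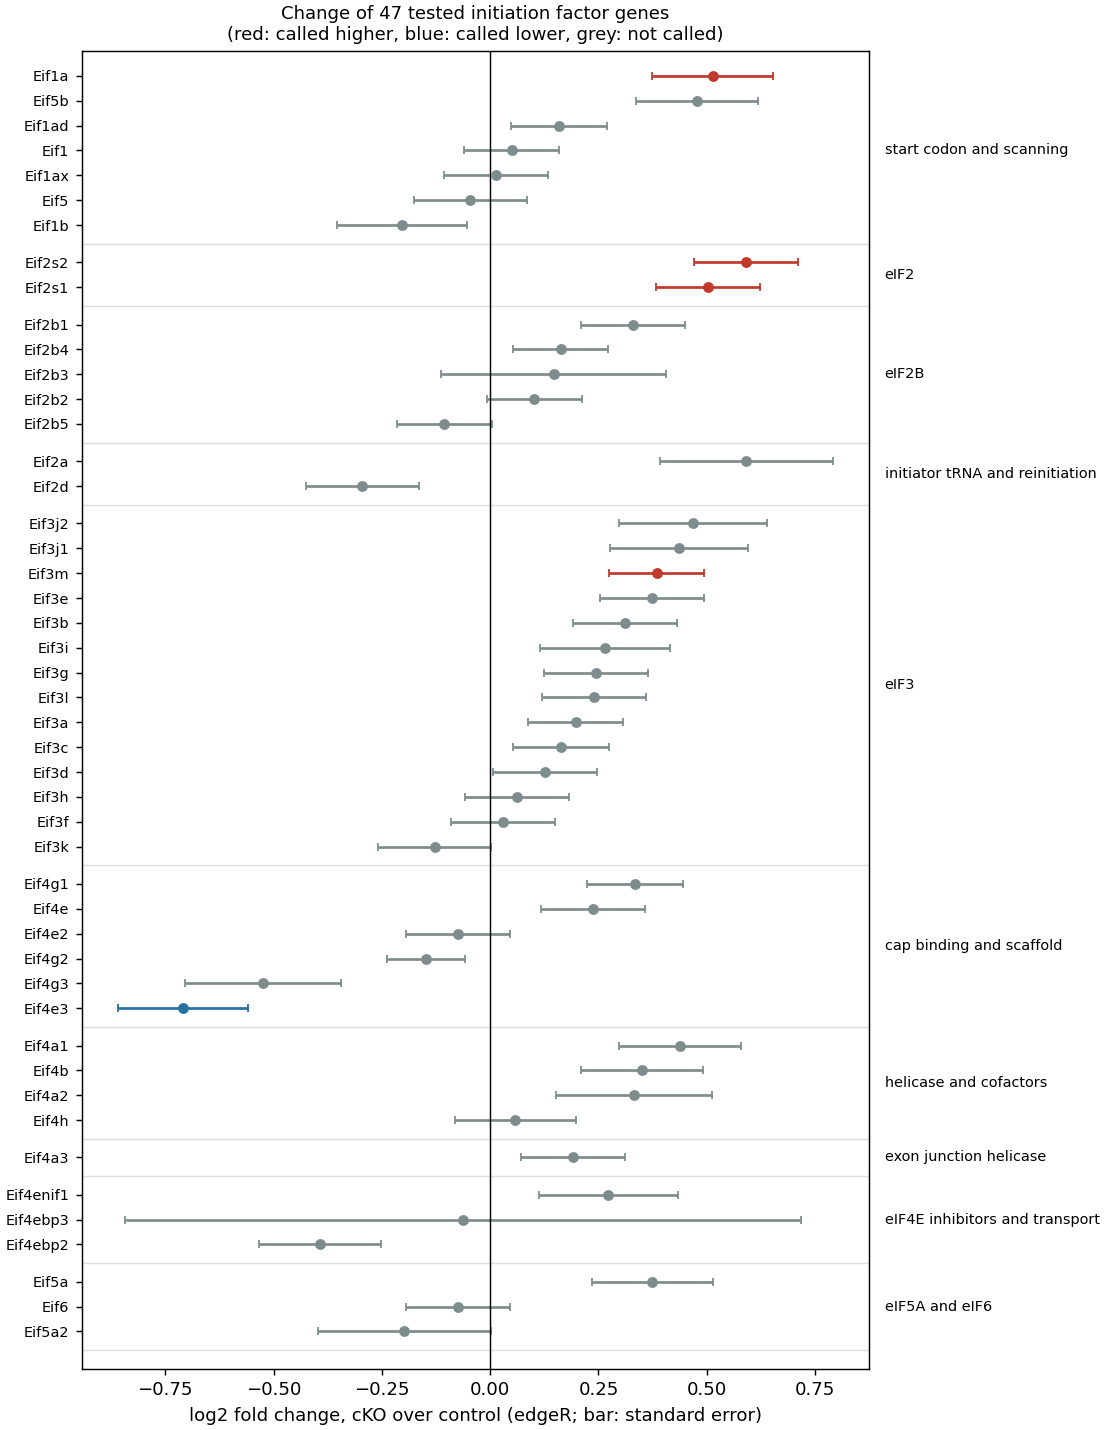
Log2 fold change (cKO over control, edgeR) of the 47 tested initiation factor genes, ordered by role, with the standard error as a bar. Red points are the 4 genes called higher, the blue point is Eif4e3, called lower at -0.71, and most grey points lie to the right of 0, with eIF3 subunits on the right except Eif3k at -0.13.

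The eIF2 genes showed the clearest rise. Eif2s1 (ENSMUSG00000021116, chr12:78861819-78887010, plus strand, GRCm38) encodes eIF2alpha, the subunit that stress kinases phosphorylate. Its level was 185, 222 and 237 CPM in control libraries 1 to 3 and 300, 288 and 324 CPM in the cKO libraries. All 3 cKO values lay above all 3 control values. The log2 fold change was 0.50 ± 0.12 (S.E.; edgeR adjusted p = 0.0312, higher in 3 of 3 libraries).

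Eif2s2 (ENSMUSG00000074656, chr2:154871410-154892935, minus strand) encodes eIF2beta, which contacts eIF5 and eIF2B. It was measured at 141, 120 and 136 CPM in control and at 209, 182 and 207 CPM in cKO. The groups again stood apart, with a log2 fold change of 0.59 ± 0.12 (S.E.; edgeR adjusted p = 0.0146). Together the alpha and beta genes summed to 347 ± 24.1 CPM in control and 503 ± 30.2 CPM in cKO, a level 45.1% higher. Of the 50-base stretches of the Eif2s2 transcript, 27.8% also occur in the pseudogene transcript Gm9892, so reads there could match either. The deposited counts hold no gene under the symbol Gm9892, nor under Gm7658 or Eif4a-ps4, the pseudogenes named further below. How reads that match both places were counted was not stated. The agouti gene, with 4 to 21 counts, overlaps Eif2s2 on the other strand. The Eif2s1 call was lost when control library 2 or any 1 of the cKO libraries was left out (edgeR adjusted p = 0.0642 to 0.14), and the Eif2s2 call without control library 2, cKO library 1 or cKO library 3 (0.0622 to 0.0821). Their log2 fold changes then stayed between 0.40 and 0.58 and between 0.52 and 0.65 over all 6 omissions.

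The genes of eIF2B, the exchange factor of eIF2, changed less. None of the 5 was called, 4 lay above 0 and their median log2 fold change was 0.15. Eif2b2, the beta subunit gene and the one with the highest level per length, measured 164, 155 and 166 CPM in control and 184, 162 and 175 CPM in cKO, and the groups overlapped. The largest difference was that of Eif2b1, the alpha subunit, at 0.33 (edgeR adjusted p = 0.105). The 5 genes summed to 541 ± 10.1 CPM in control and 580 ± 10.6 CPM in cKO, 7.12% higher. The summed eIF2 level thus moved by 0.54 on the log2 scale and that of eIF2B by 0.10, a difference that was not tested.

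Eif2a and Eif2d encode monomeric proteins, unrelated to the subunits of eIF2, that can deliver tRNA to the ribosome or act in reinitiation. Eif2a was at 74.5, 44.5 and 44.5 CPM in control and at 90.8, 72.5 and 82.7 CPM in cKO. Control library 1 lay above cKO library 2, so the groups overlapped. With 0.59 ± 0.20 (S.E.), Eif2a had a log2 fold change as large as that of Eif2s2 but was not called (edgeR adjusted p = 0.0907). It was called without control library 1, where the change was 0.88 (edgeR adjusted p = 0.00394), and by DESeq2 (0.0320). Eif2d was at 57.2 to 67.8 CPM in control and 48.4 to 53.2 CPM in cKO, without overlap, with a log2 fold change of -0.29 that was not called (edgeR adjusted p = 0.174).

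Among the factors of scanning and start codon choice, Eif1a was called and the others were not. Eif1a (ENSMUSG00000057561, chr18:46597701-46616456, plus strand) and the X-linked Eif1ax encode forms of eIF1A, which holds the small subunit open for scanning. Eif1a was at 91.7, 67.8 and 81.0 CPM in control and at 124, 105 and 115 CPM in cKO. All cKO values were above the controls, with a log2 fold change of 0.51 ± 0.14 (S.E.; edgeR adjusted p = 0.0447). Eif1ax was at 0.01 on the same scale (edgeR adjusted p = 0.963). The Eif1a call held among single omissions only without control library 1, and was lost in the other 5 (edgeR adjusted p = 0.0716 to 0.158).

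Eif1, whose protein monitors the start codon, was the highest of this group per length, at 609 FPKM (the deposited value scaled to transcript length and library size, mean of 6 libraries). It measured 835, 679 and 831 CPM in control and 836, 779 and 814 CPM in cKO, with overlap and a log2 fold change of 0.05 ± 0.11 (S.E.; edgeR adjusted p = 0.823). Without control library 2 this small value turned to -0.04. Eif5b, the GTPase that joins the large ribosomal subunit, was at 65.2 to 85.1 CPM in control and 98.9 to 102 CPM in cKO, without overlap. Its log2 fold change of 0.48 just missed the threshold (edgeR adjusted p = 0.0519), and it was called in 5 of the 13 other settings. Eif5, the activator of the eIF2 GTPase, was at -0.05 and Eif1b at -0.20, neither called.

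**Figure D2:**
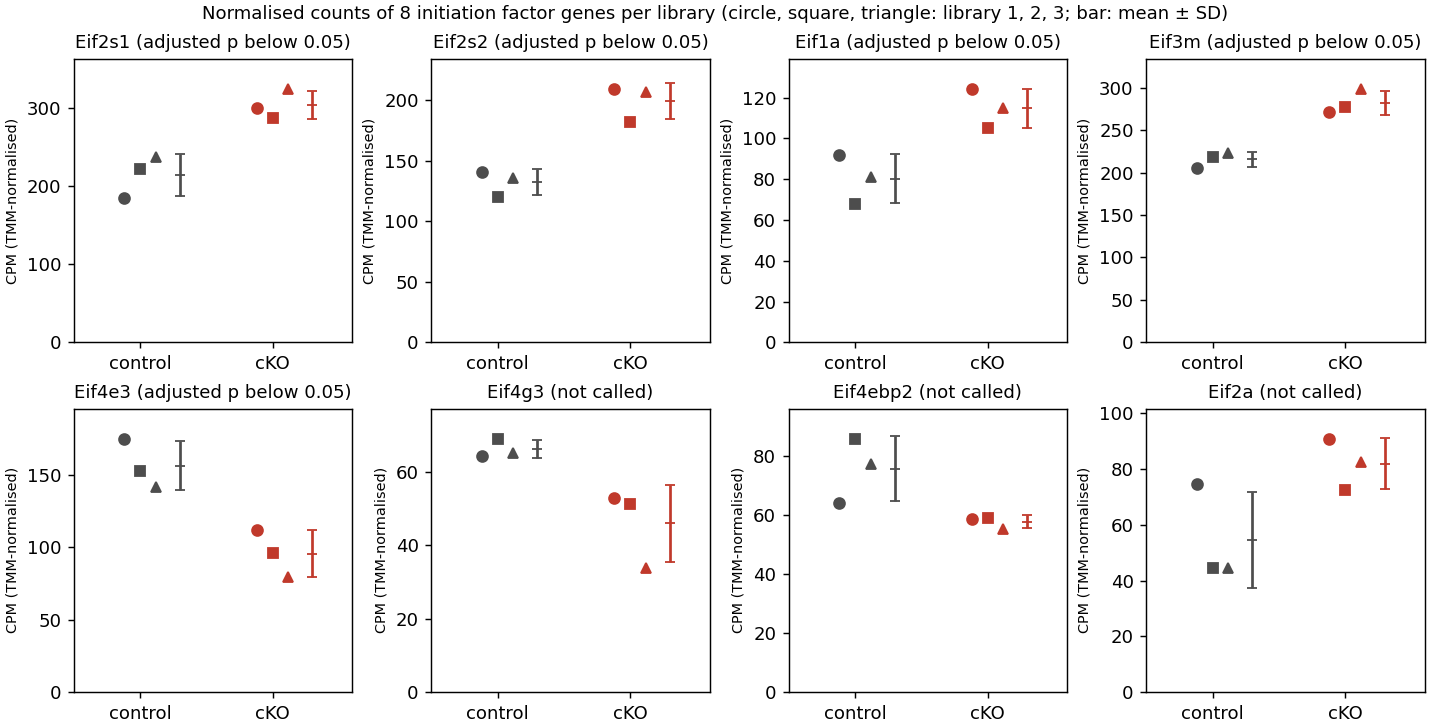
TMM-normalised CPM per library (y axis, from 0) for the 5 called genes and for Eif4g3, Eif4ebp2 and Eif2a, which complete the 3 highest and the 3 lowest log2 fold changes. Symbols mark libraries 1 to 3 of control and cKO, and bars give mean ± S.D. In Eif2a control library 1 reaches the cKO range, while in the other 7 panels the groups do not overlap.

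eIF3 is the scaffold of many subunits that bridges the small ribosomal subunit and eIF4G. Of its 14 gene symbols, 13 had a log2 fold change above 0, the median was 0.24, and 1 was called by edgeR. Eif3m (ENSMUSG00000027170, chr2:104999656-105017080, minus strand) was at 206, 218 and 223 CPM in control and at 271, 277 and 298 CPM in cKO. The groups stood apart, at 0.38 ± 0.11 (S.E.; edgeR adjusted p = 0.0447). Among single omissions the call was kept only without control library 1 (edgeR adjusted p = 0.0941 to 0.181 in the others), and it was lost with no filter on low counts (0.0566). The Eif3m transcript shares 37.3% of its 50-base stretches with the pseudogene Gm7658, and Ccdc73, with 6 to 60 counts, overlaps the gene on the other strand.

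The remaining eIF3 subunits moved by small amounts. In 8 of the 14 genes (57.1%), every cKO value exceeded every control value, and in none was every cKO value lower. Among all tested genes, 15.7% were higher and 17.3% lower without overlap. Eif3m, Eif3j1 and Eif3j2 were among the 8. Eif3e was at 0.37 (edgeR adjusted p = 0.0654) and Eif3b at 0.31 (0.117), both not called by edgeR. Eif3e was called higher in 3 of the 13 other settings, which were DESeq2, scaling by library totals alone and the filter at a mean of 5 CPM. Eif3k, the subunit with the highest level per length (207 FPKM), ran the other way, at 140, 181 and 179 CPM in control and 146, 150 and 160 CPM in cKO. Its groups overlapped and its log2 fold change was -0.13 ± 0.13 (S.E.; edgeR adjusted p = 0.563). Eif3j1 and Eif3j2, at 0.44 and 0.47, cannot be read as separate results, because 90.8% of the 50-base stretches of Eif3j2 occur in Eif3j1. The 14 genes summed to 2300, 2497 and 2639 CPM in control and 2717, 2850 and 3082 CPM in cKO, 16.3% higher and without overlap.

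At the cap, Eif4e3 fell while the main cap-binding gene did not. Eif4e3 (ENSMUSG00000093661, chr6:99625135-99666771, minus strand) encodes a cap-binding relative of eIF4E. It was at 175, 153 and 142 CPM in control and at 112, 95.9 and 79.3 CPM in cKO. Every cKO value lay below every control value, and the log2 fold change of -0.71 ± 0.15 (S.E.; edgeR adjusted p = 0.0174) was the largest in size among the members. Per length, it went from 62.0 ± 7.59 FPKM to 38.4 ± 6.79 FPKM. The call was lost without control library 2, cKO library 2 or cKO library 3 (edgeR adjusted p = 0.0533 to 0.0892), with log2 fold changes from -0.84 to -0.59 over all omissions. The transcript shares 11.5% of its 50-base stretches with the overlapping gene Gm20696, which had 112 to 231 counts.

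Eif4e, the cap-binding protein of eIF4F, was at 216, 257 and 261 CPM in control and 276, 286 and 304 CPM in cKO. The groups did not overlap, but the log2 fold change of 0.24 was not called (edgeR adjusted p = 0.210). Within each library, Eif4e had more counts than Eif4e3, by 0.31, 0.74 and 0.88 on the log2 scale in control and by 1.29, 1.58 and 1.94 in cKO. This pair was chosen after its values were seen and is given without a test. Eif4e2, a cap-binding protein that represses translation with GIGYF partners, was at -0.07 (edgeR adjusted p = 0.747).

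The eIF4G scaffolds differed in direction. Eif4g1, the main scaffold, was at 133, 114 and 126 CPM in control and 150, 164 and 157 CPM in cKO (log2 fold change 0.33, edgeR adjusted p = 0.0838). Eif4g3 was at 64.2, 68.9 and 65.2 CPM in control and 52.9, 51.1 and 33.9 CPM in cKO, with cKO library 3 the lowest (-0.52 ± 0.18 S.E., edgeR adjusted p = 0.0825). Eif4g2, which lacks the eIF4E-binding part and serves initiation without it, was at 2410, 2250 and 2310 CPM in control and 2030, 2120 and 2130 CPM in cKO (-0.15 ± 0.09 S.E., edgeR adjusted p = 0.339). None of the 3 was called, although the groups overlapped in none of them. DESeq2 called Eif4g1 and Eif4g3 (adjusted p = 0.0471 for Eif4g3).

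Ratios within a library do not depend on its depth or normalisation. The log2 count ratio of Eif4g1 to Eif4g3 was 1.05, 0.73 and 0.95 in control and 1.51, 1.68 and 2.21 in cKO, without overlap. The ratio of Eif4g2 to Eif4g1 was 4.22 ± 0.07 in control and 3.74 ± 0.04 in cKO, also without overlap. For Eif1a over Eif1ax it ran from -1.23 to -0.64 in control and from -0.61 to -0.17 in cKO, where the nearest libraries almost met. Eif5a over Eif5a2 went from 5.77 ± 0.14 to 6.36 ± 0.32. The ratios of Eif4e to Eif4e2, Eif1 to Eif1b and Eif4a1 to Eif4a2 overlapped between the groups. These ratios are descriptions with no test.

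**Figure D3:**
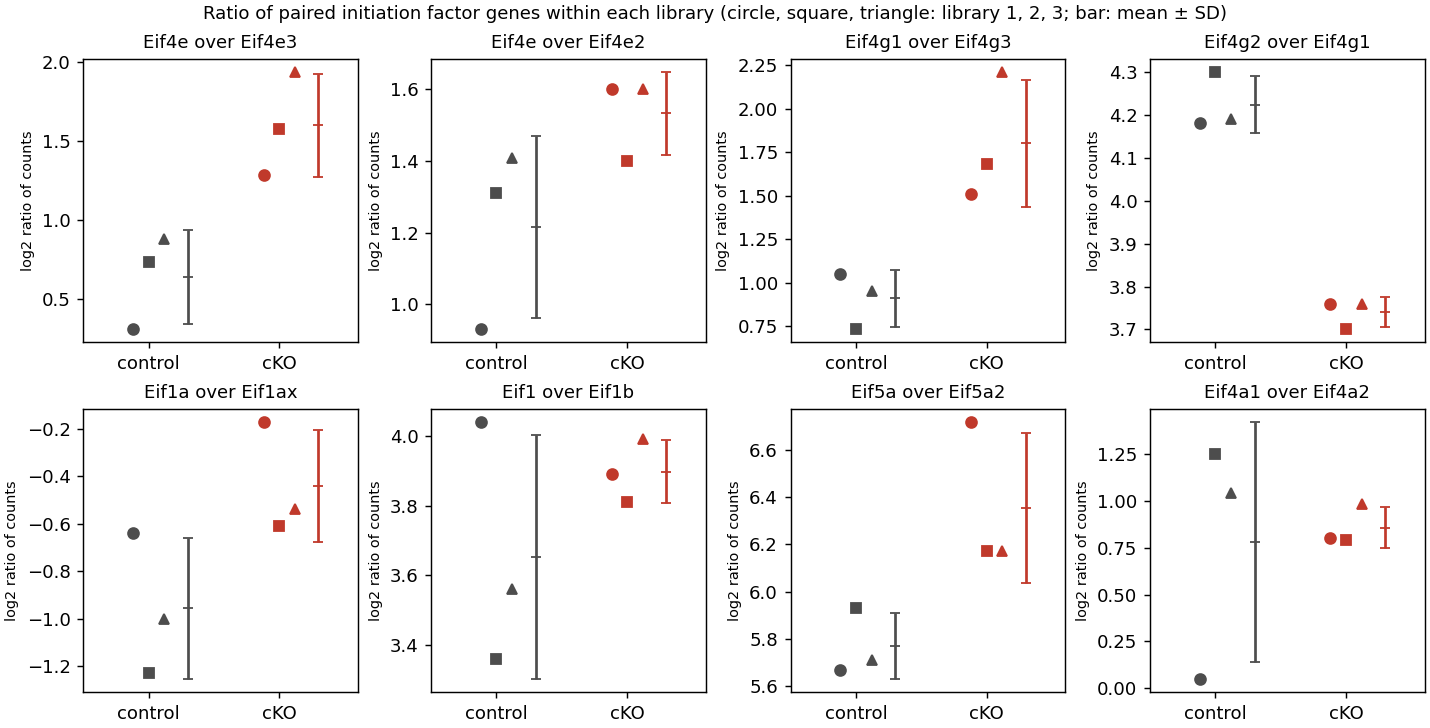
Log2 ratio of counts (y axis) for 8 pairs of related initiation factor genes within each library. Symbols mark libraries 1 to 3 of each group and bars give mean ± S.D. Eif4e over Eif4e3 and Eif4g1 over Eif4g3 are higher in every cKO library, Eif4g2 over Eif4g1 is lower, and control library 1 stands low for Eif4a1 over Eif4a2, at 0.05.

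The helicase genes and their cofactors all lay above 0 and none was called. Eif4a1, the main helicase of eIF4F, was at 327, 424 and 452 CPM in control and 544, 494 and 593 CPM in cKO, without overlap. Its log2 fold change was 0.44 ± 0.14 (S.E.; edgeR adjusted p = 0.0705), and DESeq2 called it (0.0203). Of its 50-base stretches, 64.9% occur in the pseudogene Eif4a-ps4. Eif4a2, its close relative, was at 315 CPM in control library 1, above all cKO libraries (286 to 312 CPM), and at 178 and 221 CPM in the other controls. Eif4b, which stimulates the helicase, was at 0.35 (edgeR adjusted p = 0.123) and Eif4h at 0.06. The 5 eIF4F genes Eif4e, Eif4a1, Eif4a2, Eif4g1 and Eif4g3 summed to 1070 ± 44.5 CPM in control and 1330 ± 53.7 CPM in cKO, 24.2% higher. Eif4a3, the helicase of the exon junction complex, was at 346, 350 and 419 CPM in control and 398, 412 and 465 CPM in cKO, with overlap (0.19 ± 0.12 S.E., edgeR adjusted p = 0.335).

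Of the genes that hold back or move eIF4E, none was called. Eif4ebp2, a 4E-BP that competes with eIF4G for eIF4E, was at 63.9, 85.6 and 77.1 CPM in control and 58.6, 59.0 and 55.0 CPM in cKO. The groups came close but did not overlap, at -0.39 ± 0.14 (S.E.; edgeR adjusted p = 0.101). Without control library 1, its lowest control, the adjusted p was 0.0197. Eif4ebp3 was near the detection limit, with a standard error of 0.78 on the log2 scale, and Eif4enif1, which carries eIF4E into the nucleus, was at 0.27 (edgeR adjusted p = 0.291).

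Eif5a had the highest level per length of all members, at 1210 FPKM. Its protein carries hypusine, a modified lysine, and helps the ribosome through difficult peptide bonds. It was at 1050, 1360 and 1490 CPM in control and 1800, 1570 and 1680 CPM in cKO, without overlap, and was not called (0.37 ± 0.14 S.E., edgeR adjusted p = 0.103; DESeq2 adjusted p = 0.0481). Eif5a2 was far lower (4.42 FPKM) and Eif6, which keeps the large subunit from joining early, was at -0.07.

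Levels per length spanned from 1.69 FPKM for Eif4ebp3 to 1210 FPKM for Eif5a. Eif1 (609 FPKM), Eif4g2 (552 FPKM), Eif4a1 (293 FPKM), Eif5 (292 FPKM) and Eif4a3 (268 FPKM) followed Eif5a. Over the 6 libraries, the values of Eif1 and Eif4g2 overlapped, as did those of Eif4a1, Eif5 and Eif4a3, while every value of Eif5a exceeded those of Eif1 and every value of Eif4g2 those of Eif4a1. Of the called genes, Eif3m ranked 9 of 47, at 199 FPKM, and the other 4 ranked 22 to 33, with Eif2s1 at 76.2 FPKM, Eif2s2 at 66.5 FPKM, Eif4e3 at 50.2 FPKM and Eif1a at 41.1 FPKM. The eIF3 subunits, which form 1 complex, ranged from 9.36 FPKM (Eif3j1) to 207 FPKM (Eif3k).

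**Figure D4:**
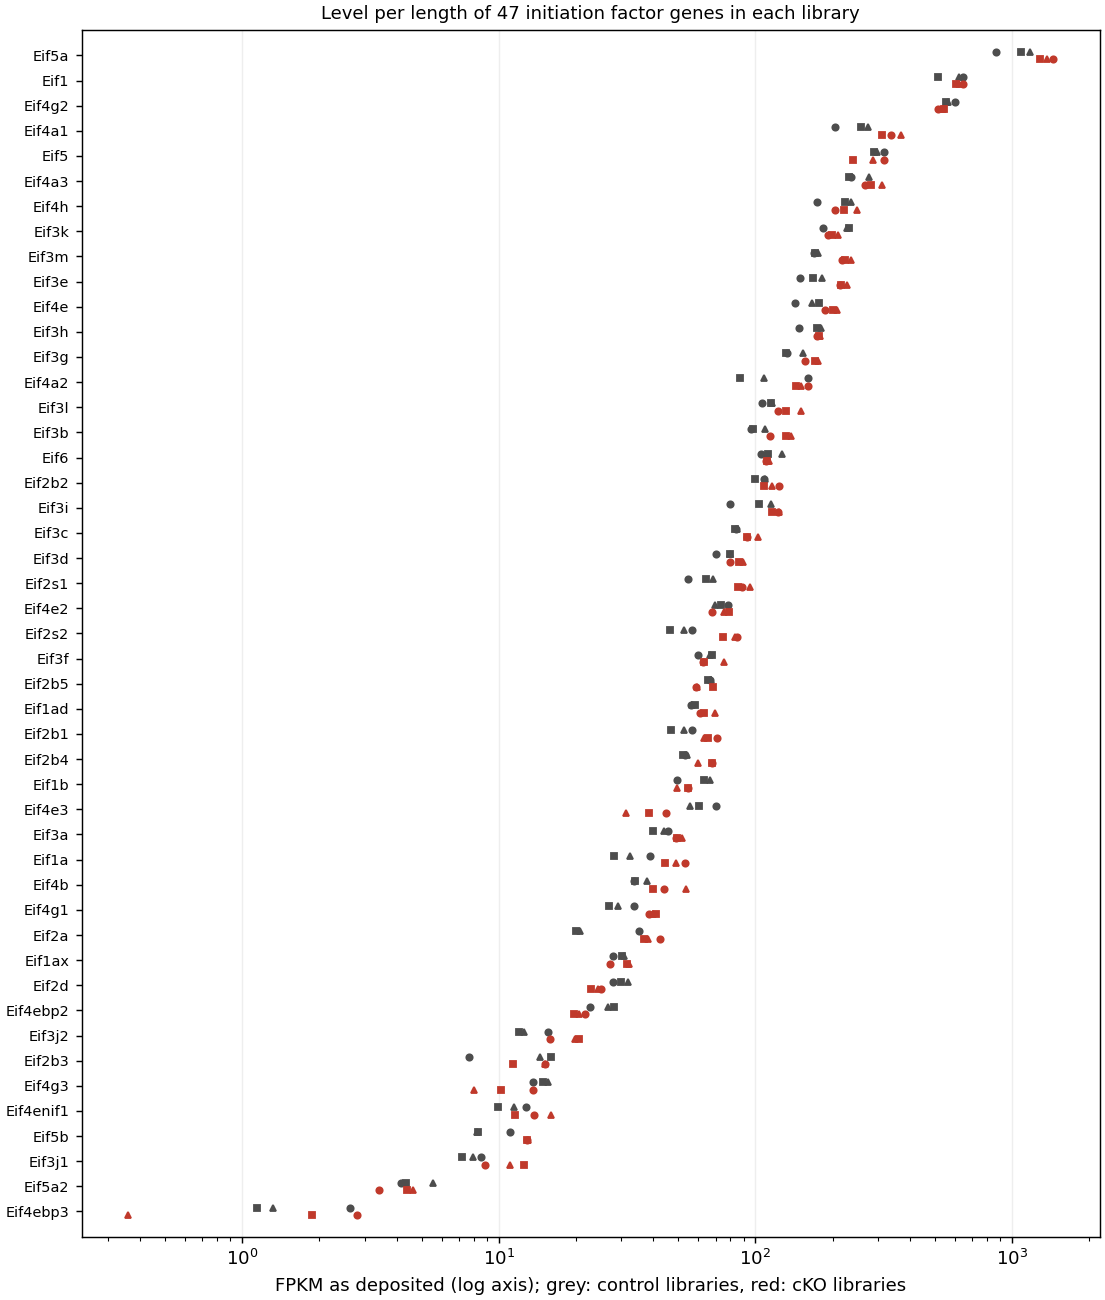
Deposited FPKM of the 47 tested initiation factor genes in each library on a log axis, ordered by the mean over 6 libraries, with control in grey and cKO in red. Eif5a (1210 FPKM) is at the top and Eif4ebp3 (1.69 FPKM) at the bottom, and the genotypes differ far less than the genes do.

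Genes that act with the initiation factors, or in the steps after them, were listed as 40 partners, of which 39 were tested. Of these, 3 were higher and 1 lower (10.3% called, against 10.4% of all genes), 30 had a log2 fold change above 0 and the median was 0.13. Eef1g, a subunit of the exchange factor of eEF1A, was at 132, 182 and 183 CPM in control and 279, 284 and 306 CPM in cKO, well apart (0.81 ± 0.14 S.E., edgeR adjusted p = 0.00923). Eef1b2, another subunit of that exchange factor, was at 104, 129 and 144 CPM in control and 185, 180 and 192 CPM in cKO (0.56 ± 0.13 S.E., edgeR adjusted p = 0.0276). Etf1, which recognises stop codons, was at 133, 128 and 135 CPM in control and 205, 185 and 247 CPM in cKO (0.69 ± 0.13 S.E., edgeR adjusted p = 0.0113). Eefsec, the elongation factor for selenocysteine, was lower, at 188, 203 and 211 CPM in control and 157, 158 and 129 CPM in cKO (-0.44 ± 0.12 S.E., edgeR adjusted p = 0.0449). In these 4 genes the groups did not overlap. Leaving out 1 library lost the call of Eef1g without cKO library 3, of Etf1 without control library 2 or cKO library 3, of Eef1b2 without control library 2 or any 1 cKO library, and of Eefsec in each case except without control library 1 (edgeR adjusted p = 0.0513 to 0.184).

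No partner was called among the genes of poly(A) binding, eIF4E kinases, helicases, GIGYF and LARP proteins, recycling, eIF2alpha phosphatase, nuclear cap binding, mitochondrial initiation or hypusine synthesis. Ppp1r15a, the stress-induced subunit that recruits the phosphatase to eIF2alpha, was at 555 to 680 CPM in control and 662 to 998 CPM in cKO, with overlap (0.46, edgeR adjusted p = 0.0858). Abce1, which splits ribosomes after termination, was at 180 to 191 CPM in control and 222 to 248 CPM in cKO, without overlap (0.34, edgeR adjusted p = 0.0687).

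**Figure D5:**
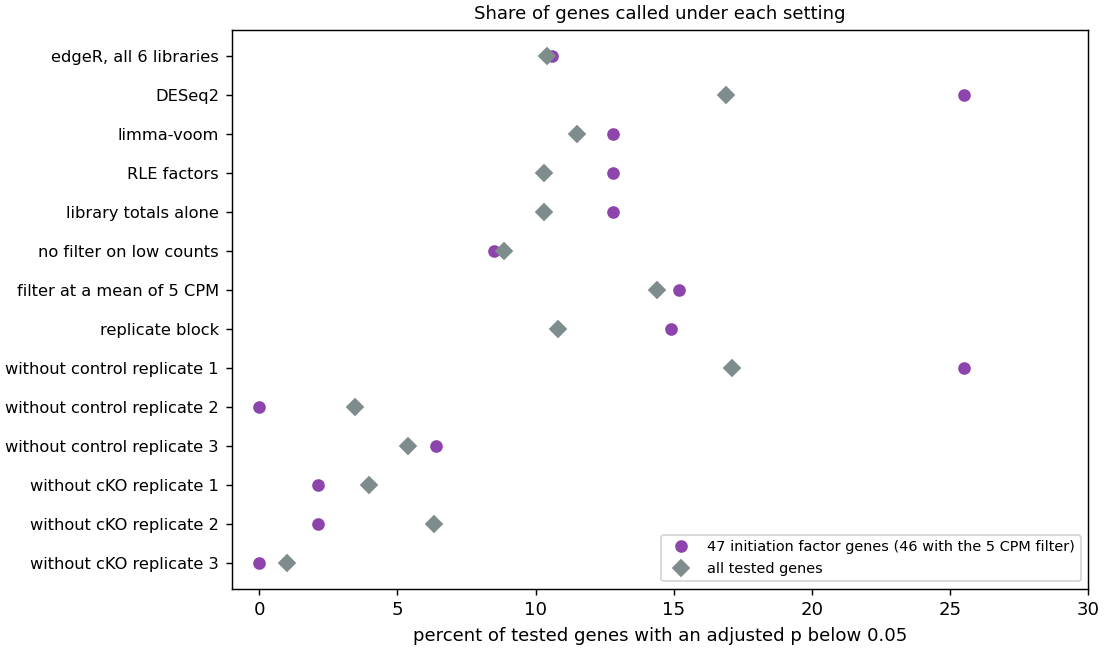
Percent of genes called at an adjusted p below 0.05 (x axis) for the initiation factors and for all tested genes, in the edgeR test with all 6 libraries and in 13 other settings (y axis). With all libraries the shares are 10.6% and 10.4%, with DESeq2 25.5% and 16.9%, and without control library 2 or cKO library 3 no initiation factor is called.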

How the data were processed

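Double-positive thymocyte libraries were grouped by the genotype labels. Deposited counts per gene are the authors' read counts without normalization, and deposited FPKM values are the authors' own, scaled to length and library size. Fold change, p-value and FDR columns hold the authors' own comparison and were not used. The submitters' processing notes name fastp 0.18.0, Bowtie2 2.2.8, HISAT2, StringTie 1.3.1 and RSEM, with no role. The build, the annotation and whether counting used strand were not stated in the labels or methods. The labels name a SMARTER kit, the methods the Discover-sc WTA kit, which was left unresolved.

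Counts were filtered by filterByExpr (minimum count 10, minimum total 15), which kept 11488 of 15349 genes with a count, and tested in R 4.3.3 with edgeR 4.0.16 (TMM, quasi-likelihood test, genotype as the only term), adjusted over all tested genes. CPM values use TMM factors. Alternatives were DESeq2 1.42.0, limma-voom (limma 3.58.1), other scalings and filters, the replicate number as a block, and each library left out. The code was tested on simulated data. Positions and shared sequence are from GENCODE M21 (GRCm38), with all 66 identifiers matched. Shared sequence is the share of 50-base stretches of the longest coding transcript that occur in transcripts of other genes. Members given above without such a share can have one too. Among them, over all other genes, are Eif4ebp3 (65.5%), Eif1 (31.6%), Eif3h (26.2%), Eif4a3 (24.4%) and Eif3e (22.0%).

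The members and lists were chosen with earlier results of these data known. Full values are given for called members, for the 3 highest and 3 lowest log2 fold changes, and for the member of each role group with the highest FPKM. Other values, and the pair of Eif4e and Eif4e3, were chosen after they were seen.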

Additional observations from a re-analysis of the deposited data

How the results depend on the processing

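The direction of the 5 called members and the sums over eIF2, eIF2B, eIF3 and eIF4F kept their sign in every setting run for them. DESeq2 called 10 members higher and 2 lower, 953 of all genes higher, and 5 partners higher. Leaving out 1 library gave 0 to 10 members higher and 0 to 2 lower, 42 to 1000 of all genes higher and 78 to 1030 lower, and 0 to 5 partners higher and 0 to 2 lower. These omissions leave fewer samples, with 2 libraries in a group. With library totals alone, 0 partners were called lower. With the replicate number as a block, 7 members were called, the 5 of the full comparison among them (14.9%, against 10.8% of all genes), Eif2a at an adjusted p of 0.0398 and Eif4a1 at 0.0478, and 0 partners were called lower (edgeR). Deviations of same-numbered libraries correlated at r = 0.0622, 0.0793 and -0.00453, and those of the other pairs at -0.0948 to 0.0172. Control libraries 1 and 2 correlated best with their own number, and control library 3 did not. Values this near 0 in so few libraries cannot show whether the numbers pair the samples. Leaving out 1 library also turned the sign of Eif1, between -0.04 (without control library 2) and 0.10, and of the within-library change of Eif4a1 over Eif4a2, between -0.29 (without control library 1) and 0.31. The cause of these shifts was not tested. With 3 libraries per genotype and a median standard error of 0.12, the smallest member change called by edgeR was 0.38 (Eif3m). Larger ones, up to 0.59 (Eif2a), were not called. A member that was not called may therefore still differ by such an amount.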
